A study of Arabidopsis thaliana with 20 samples.

Results

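The Aux/IAA proteins are the repressors of the auxin response in plants. Described here are 10 genes of the family, IAA1 (AT4G14560), IAA2 (AT3G23030), IAA3 (AT1G04240), IAA4 (AT5G43700), IAA5 (AT1G15580), IAA6 (AT1G52830), IAA14 (AT4G14550), IAA17 (AT1G04250), IAA19 (AT3G15540) and IAA29 (AT4G32280), chosen by locus from the 33602 genes counted. All 10 passed the filter on low counts, and 19954 genes were tested. The other 19 Aux/IAA genes serve as comparison, although the 10 were chosen with earlier results of these data known. RNA was sequenced from 20 libraries of whole rosettes of Arabidopsis thaliana in the Col-0 background. Each library pooled 5 rosettes at an age of 3 weeks. Plants had either been exposed to ozone at 350 ppb for 2 h or kept as controls. The wild type, Col-0, was represented by 4 control and by 4 ozone libraries. The libraries labelled wrky25 wrky33 and those labelled wrky75, mutants of WRKY transcription factor genes whose alleles are not stated in the sources used here, had 3 control and 3 ozone libraries each.

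Auxin acts through a short nuclear pathway. Aux/IAA proteins bind auxin response factors (ARFs) on the promoters of auxin-responsive genes and recruit the co-repressor TOPLESS (TPL) through a motif of alternating leucines. Auxin joins the degron of an Aux/IAA protein to an F-box receptor of the TIR1/AFB family, and the repressor is then degraded. Many Aux/IAA genes are themselves induced by auxin within minutes, so that their transcripts are used as a readout of auxin signalling as well as being part of its feedback. Ozone taken up through stomata breaks down into reactive oxygen species in the cell wall space.

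The degron is the stretch by which these proteins meet the receptor, and it was shared by the whole set. The amino acids GWPPV were encoded in 10 of 10 members and in 7 of the other 19 family genes, while 13 of those 19 encoded the shorter GWPP. The leucine motif LxLxL was encoded in 10 of 10 members and 18 of 19 others. Shown are 36 coding bases around the degron of the closely related IAA1 and IAA2, of IAA6 and IAA19, and of IAA29, read from the RefSeq assembly TAIR10.1 in the direction of the gene, with the codons of GWPPV in capitals. They lie at chr4:8361436-8361471 (plus strand), chr3:8181381-8181416 (minus), chr1:19673317-19673352 (minus), chr3:5264307-5264342 (plus) and chr4:15583942-15583977 (plus), each inside one coding exon.
IAA1: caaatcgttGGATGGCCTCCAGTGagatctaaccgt
IAA2: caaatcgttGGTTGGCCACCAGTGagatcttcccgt
IAA6: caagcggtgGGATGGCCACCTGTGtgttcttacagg
IAA19: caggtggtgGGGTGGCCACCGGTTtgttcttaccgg
IAA29: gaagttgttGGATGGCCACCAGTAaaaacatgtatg
Within the set 4 pairs were formed by coding sequence, and IAA5 and IAA29 had no partner. IAA1 and IAA2 were identical at 78.7% of aligned columns, IAA3 and IAA4 at 76.6%, IAA6 and IAA19 at 69.1%, and IAA14 and IAA17 at 68.0%. The last pair stood out little, since IAA1 and IAA4 were identical at 66.8% and IAA14 and IAA16, from outside the set, at 66.0%. IAA7 was aligned as a coding sequence of 167 codons against 228 for IAA14, so their 52.8% may understate their likeness. The longest exact match within a pair was 29, 42, 26 and 14 bases, in that order. Reads from longer fragments could be assigned to one partner, although the read length is not given in the sources used here. Matches to genes outside the set could be longer, at 35 bases for IAA14 with IAA7 and 32 for IAA17 with IAA16. In Col-0 under ozone, IAA7 stood at 22.7 and IAA16 at 75.6 CPM, beside 1.0 for IAA14 and 13.9 for IAA17. Sharing of reads between these genes was not tested. No annotated gene overlapped any of the 10. IAA1 and IAA14 are neighbours on chromosome 4 with no locus between them, 11038 bases apart, and IAA3 and IAA17 are neighbours on chromosome 1, 6706 bases apart.

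The libraries held 20486137 to 20771667 counts each. Treatment separated them on the first principal component, with 84.6% of the variance. Ozone changed much of the transcriptome, with 6635 genes called higher and 7272 called lower in Col-0 at an adjusted p under 0.05 (edgeR quasi-likelihood test). Of the called genes 47.7% were higher, against 37.2% with upper-quartile scaling, which moved the median log2 change of all genes from −0.08 to −0.28. The counts checked the labels of the mutants only in part. In control libraries WRKY25 was at 3.58, 5.55 and 3.14 CPM in wrky25 wrky33 against 8.38 to 16.09 CPM in Col-0, and WRKY33 at 12.57 to 14.19 CPM against 14.75 to 23.81 CPM, without overlap though neither was called (adjusted p = 0.0529 and 1, edgeR). WRKY75 overlapped between wrky75 and Col-0 with and without ozone. In wrky25 wrky33, whose label does not name it, WRKY75 was also below Col-0 without overlap. It was at 0.0 to 0.2 CPM there against 0.27 to 0.73 CPM in control, and at 18.77 to 25.44 CPM against 47.98 to 128.54 CPM with ozone. The lack of overlap for WRKY25 and WRKY33 in control was therefore not particular to the genes named in the label. Under ozone WRKY25 was at 193 ± 25.9 CPM (SD, n = 3) and WRKY33 at 331 ± 102 CPM in wrky25 wrky33 libraries, against 122 ± 17.7 and 519 ± 179 CPM in Col-0 (SD, n = 4), and WRKY75 was at 52.3 ± 22.6 CPM in wrky75 libraries against 84.1 ± 41.0 CPM in Col-0. Replicate 4 of both Col-0 groups lay apart from replicates 1 to 3 on the second principal component (2.6% of the variance), and without both the same 9 members were called lower in Col-0. The leaf markers RBCS1A, LHCB1.3 and RCA summed to 34000 to 47600 counts-per-million (CPM) in control libraries and to 14900 to 27900 CPM under ozone. In Col-0, 3 of 3 were called lower, where 36.4% of all tested genes were. Of 6 markers of the shoot apex and dividing cells, WUS and CLV3 were below the filter, STM fell by 0.62 ± 0.17 (SE) on the log2 scale in Col-0 (adjusted p = 0.00378, edgeR), and KNAT1, KN and CYCB1;1 were not called. The summed level of all 6 was 27.7 to 42.5 CPM in control libraries and 23.4 to 32.7 CPM under ozone. Of 3 flower markers, which summed to 1.06 to 2.96 CPM in control and 0.274 to 1.71 CPM under ozone, AP3 and PI were below the filter, and AG fell with the members, by 1.86 ± 0.32 on the log2 scale in Col-0 (adjusted p = 4.42e-05, edgeR), with log2 changes of −1.11 ± 0.34 in wrky25 wrky33 and −2.13 ± 0.41 in wrky75 (adjusted p = 0.00837 and 0.000152). The part of tissue makeup in the results below was not tested. In whole rosettes, fewer cells that express a gene and less RNA per cell cannot be told apart.

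Ozone lowered 9 of the 10 repressor genes in all 3 genotypes, and IAA2 alone was not called. In Col-0, 9 of 10 were called lower, where 36.4% of all tested genes were, and 0 of 10 were called higher, where 33.3% of all genes were. No member was higher at an unadjusted p under 0.05, and DESeq2 called the same counts. In 9 of 10 genes every Col-0 ozone library lay below every Col-0 control library, a pattern found in 30% of all genes. In wrky25 wrky33, 9 of 10 were called lower (33.9% of all genes), 0 called higher (31.1%), and 9 of 10 had every ozone library below every control library (38.2%). In wrky75 the counts were again 9 lower (36.1%), 0 higher (32.0%) and 9 with every ozone library below every control library (38.8%). The median log2 fold change of the 10 genes was −3.28 in Col-0, −2.81 in wrky25 wrky33 and −3.07 in wrky75, beside −0.08, −0.09 and −0.11 over all tested genes. In each of the 9 genes, all 10 ozone libraries lay below all 10 control libraries. The share of all genes with this wider pattern was not computed, so it cannot be called particular to these genes.

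**Figure D1:**
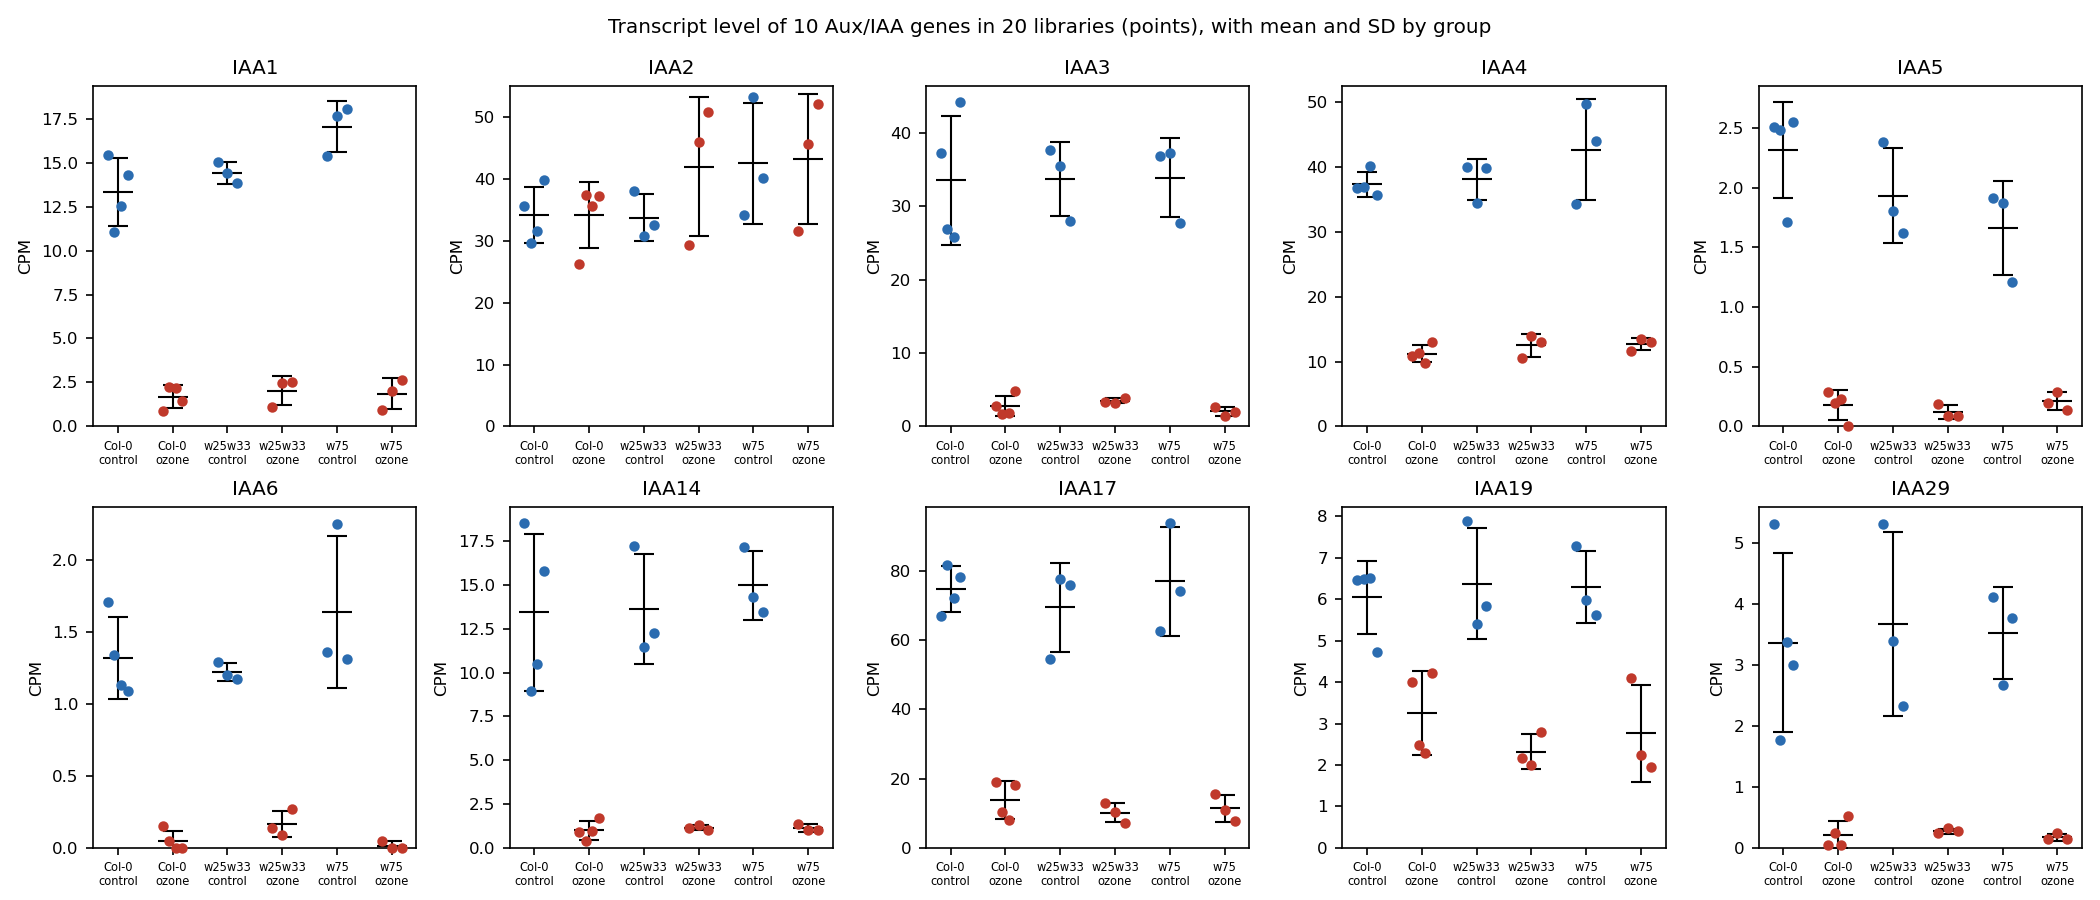
Transcript level in CPM (linear axis from 0) of the 10 Aux/IAA genes in each of the 20 libraries (points; blue control, red ozone), with group mean and SD; w25w33 stands for wrky25 wrky33 and w75 for wrky75. In 9 panels all red points lie below all blue points, and in the IAA2 panel, at 26.22 to 53.25 CPM, they overlap. The share of all genes with such a pattern over the 20 libraries was not computed.

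IAA17 (chr1:1136258-1138613 in TAIR10, plus strand), known as AXR3 from gain-of-function mutants with exaggerated auxin responses, was the most abundant of the 10 per kilobase. The 4 Col-0 control libraries held 66.93, 81.60, 72.02 and 78.16 CPM of IAA17, and the 4 ozone libraries held 19.08, 10.30, 7.91 and 18.12 CPM. In wrky25 wrky33 IAA17 went from 54.54, 77.71 and 75.93 CPM to 12.84, 10.44 and 7.25 CPM with ozone, and in wrky75 from 62.54, 93.86 and 74.22 CPM to 15.62, 10.95 and 7.76 CPM. No ozone library reached a control library, and ozone replicate 1 was the highest of replicates 1 to 3 in each genotype. IAA17 fell by 2.43 ± 0.27 (SE) on the log2 scale in Col-0, or 5.40-fold (adjusted p = 2.37e-07, edgeR), by 2.77 ± 0.31 in wrky25 wrky33 and by 2.75 ± 0.31 in wrky75.

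IAA3 (chr1:1128188-1129551, minus strand), or SHY2, is a repressor known for restraining the root meristem where cytokinin and auxin oppose each other. Col-0 plants without ozone had IAA3 levels of 37.28, 26.93, 25.79 and 44.25 CPM, and those with ozone 2.79, 1.76, 1.83 and 4.80 CPM. In wrky25 wrky33 IAA3 stood at 37.70, 35.53 and 28.06 CPM and then at 3.36, 3.23 and 3.87 CPM, and in wrky75 at 36.80, 37.26 and 27.66 CPM and then at 2.64, 1.46 and 2.01 CPM. The lowest control library was thus far above the highest ozone library, which was Col-0 replicate 4. IAA3 was 12.1-fold lower in Col-0 (log2 fold change −3.59 ± 0.27, adjusted p = 1.78e-09, edgeR), 9.66-fold lower in wrky25 wrky33 and 16.6-fold lower in wrky75.

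Its partner IAA4 (chr5:17550233-17551581, plus strand), an early auxin-inducible gene, started from a like level per kilobase of RefSeq exons and fell less. Across the Col-0 controls IAA4 read 36.68, 36.86, 40.07 and 35.64 CPM, and it read 10.81, 11.28, 9.78 and 13 CPM after exposure. The wrky25 wrky33 controls had 39.99, 34.43 and 39.81 CPM and their ozone libraries 10.52, 13.99 and 12.97 CPM, and those of wrky75 held 34.24, 49.66 and 44.00 CPM and 11.62, 13.43 and 13.02 CPM. Control and ozone libraries did not overlap, and the wrky75 controls spread the most (42.6 ± 7.8 CPM, SD, n = 3). The fall of IAA4 was 3.33-fold in Col-0 (−1.73 ± 0.12, adjusted p = 6.38e-10, edgeR), 3.05-fold in wrky25 wrky33 and 3.36-fold in wrky75.

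IAA1 and IAA2 are each other's closest relatives in the set and parted under ozone. IAA1 (chr4:8361058-8361986, plus strand), whose gain-of-function mutant axr5 is auxin resistant, measured 15.45, 11.08, 12.53 and 14.29 CPM in untreated Col-0 and 0.88, 2.25, 2.19 and 1.46 CPM in ozone-treated Col-0. It stood at 15.05, 14.39 and 13.83 CPM and then 1.09, 2.49 and 2.52 CPM in wrky25 wrky33, and at 15.38, 17.67 and 18.05 CPM and then 0.91, 1.99 and 2.65 CPM in wrky75. Every ozone library lay below every control library. IAA1 fell 7.81-fold in Col-0 (−2.97 ± 0.28, adjusted p = 3.49e-08, edgeR), 7.05-fold in wrky25 wrky33 and 9.10-fold in wrky75.

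IAA2 (chr3:8180768-8181800, minus strand), whose promoter is in common use as an auxin reporter in roots, measured 35.67, 29.70, 31.56 and 39.83 CPM in untreated Col-0 and 26.22, 37.39, 35.70 and 37.34 CPM in ozone-treated Col-0. In wrky25 wrky33 it had 38.05, 30.73 and 32.57 CPM and then 29.29, 45.99 and 50.84 CPM, and in wrky75 34.19, 53.25 and 40.23 CPM and then 31.65, 45.73 and 52.20 CPM. The groups overlapped in each genotype. The log2 change of IAA2 was 0.00 ± 0.19 in Col-0 (adjusted p = 0.995, edgeR), 0.32 ± 0.22 in wrky25 wrky33 (adjusted p = 0.209) and 0.02 ± 0.22 in wrky75 (adjusted p = 0.935). An interval of 2 SE either side ran from −0.38 to 0.37 in Col-0, from −0.12 to 0.75 in wrky25 wrky33 and from −0.41 to 0.45 in wrky75. Ozone replicate 1 was the lowest of replicates 1 to 3 in every genotype for IAA2 as for IAA1. Without wrky25 wrky33 ozone replicate 1, IAA2 was called higher in that genotype (0.52 ± 0.21, adjusted p = 0.04, edgeR). With upper-quartile scaling its Col-0 value was −0.21, beside the −0.28 median of all genes under that scaling.

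**Figure D2:**
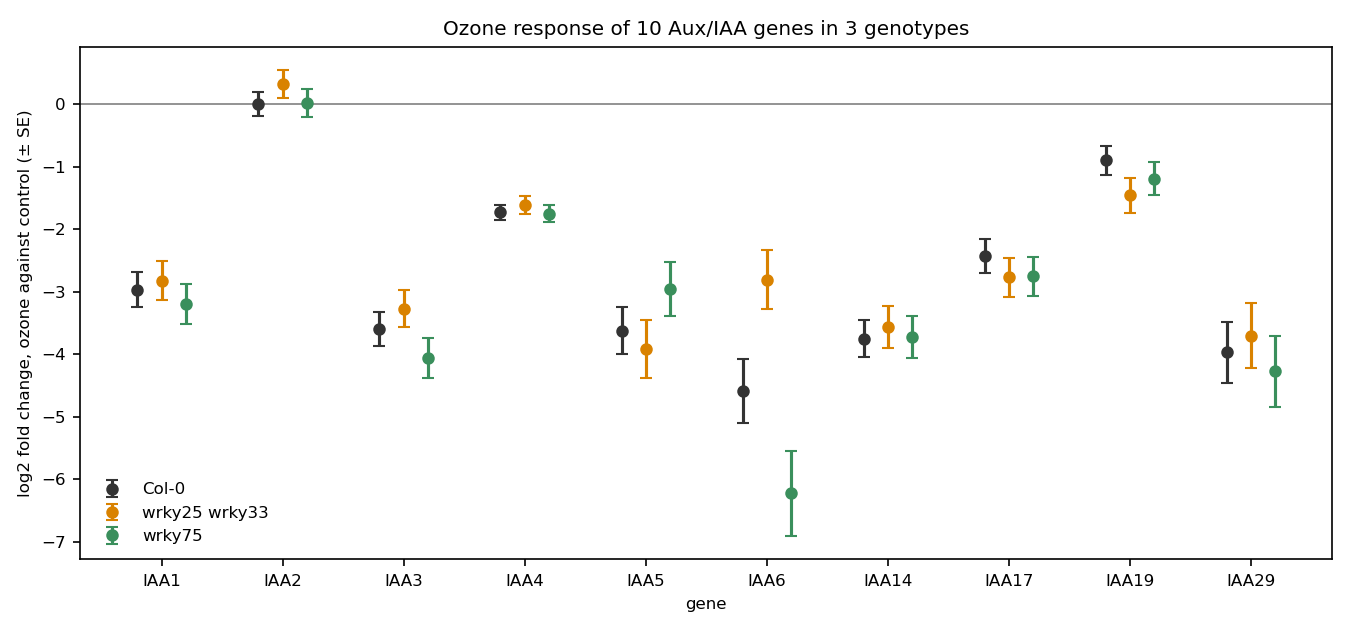
Log2 fold change of ozone against control with SE for each of the 10 genes, in Col-0, wrky25 wrky33 and wrky75. The 3 genotypes lie close together for most genes, IAA2 lies at 0.00, 0.32 and 0.02, and IAA6 has the widest spread between genotypes, its fitted wrky75 value resting on 1 ozone count.

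IAA14 (chr4:8347822-8350019, minus strand), known as SLR from a mutant without lateral roots, read 18.51, 8.93, 10.47 and 15.80 CPM across the Col-0 controls and 0.93, 0.39, 0.96 and 1.72 CPM after exposure. In wrky25 wrky33 IAA14 went from 17.24, 11.44 and 12.26 CPM to 1.14, 1.29 and 1.04 CPM with ozone, and in wrky75 from 17.19, 14.32 and 13.43 CPM to 1.37, 1.02 and 1.00 CPM. The control libraries spread widely, and none of them overlapped with ozone. IAA14 was 13.4-fold lower in Col-0 (−3.75 ± 0.30, adjusted p = 4.32e-09, edgeR), 11.8-fold lower in wrky25 wrky33 and 13.2-fold lower in wrky75.

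IAA19 (chr3:5264024-5265678, plus strand), or MSG2, a repressor known from phototropic and gravitropic bending of the hypocotyl, changed the least among the 9 that fell. Untreated Col-0 libraries held 6.47, 6.49, 6.51 and 4.73 CPM of IAA19, and treated ones 4.01, 2.49, 2.29 and 4.23 CPM. The gap between these groups was small, since the lowest control library and the highest ozone library were both replicate 4. In wrky25 wrky33 IAA19 went from 7.90, 5.40 and 5.83 CPM to 2.18, 1.99 and 2.79 CPM, and in wrky75 from 7.29, 5.99 and 5.63 CPM to 4.11, 2.24 and 1.96 CPM. It fell by 0.90 ± 0.23 on the log2 scale in Col-0 (adjusted p = 0.00225, edgeR), by 1.46 ± 0.28 in wrky25 wrky33 (adjusted p = 0.000161) and by 1.19 ± 0.27 in wrky75 (adjusted p = 0.000831).

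The scarce members fell close to the detection limit. IAA29 (chr4:15583387-15584769, plus strand), a gene known for its induction by shade, measured 5.32, 1.77, 3.38 and 3.00 CPM in untreated Col-0 and 0.05, 0.24, 0.05 and 0.52 CPM in ozone-treated Col-0. In wrky25 wrky33 it went from 5.31, 3.4 and 2.33 CPM to 0.24, 0.32 and 0.27 CPM, and in wrky75 from 4.12, 2.68 and 3.77 CPM to 0.15, 0.24 and 0.14 CPM. Control levels of IAA29 were uneven, and none overlapped with ozone. The log2 change of IAA29 was −3.97 ± 0.48 in Col-0 (adjusted p = 8.30e-07, edgeR), −3.70 ± 0.52 in wrky25 wrky33 and −4.27 ± 0.57 in wrky75. Col-0 ozone replicate 4 held 10 of the 17 ozone counts of IAA29 in Col-0, and without it the value was −4.84.

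IAA5 (chr1:5365665-5366497, minus strand), an early auxin-induced gene, was counted 50, 52, 35 and 56 times in the Col-0 control libraries and 6, 4, 5 and 0 times in the ozone libraries. In wrky25 wrky33 it went from 2.38, 1.80 and 1.62 CPM to 0.19, 0.09 and 0.09 CPM, and in wrky75 from 1.91, 1.87 and 1.21 CPM to 0.20, 0.29 and 0.14 CPM. The groups did not overlap. On the log2 scale IAA5 fell by 3.62 ± 0.37 in Col-0 (adjusted p = 9.30e-08, edgeR), by 3.91 ± 0.46 in wrky25 wrky33 and by 2.95 ± 0.43 in wrky75.

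IAA6 (chr1:19672496-19673644, minus strand), known as SHY1, was the scarcest per kilobase. It was counted 34, 28, 23 and 24 times in Col-0 control libraries and 3, 1, 0 and 0 times under ozone, where a count of 0 allows up to 3 counts, or 0.137 and 0.157 CPM in these 2 libraries. In wrky25 wrky33 the counts were 26, 24 and 23 in control and 3, 2 and 6 under ozone. In wrky75 they were 27, 47 and 26 in control and 1, 0 and 0 under ozone. The log2 change of IAA6 was −4.59 ± 0.51 in Col-0 (adjusted p = 3.00e-07, edgeR) and −2.81 ± 0.47 in wrky25 wrky33 (adjusted p = 4.96e-05). Without Col-0 ozone replicate 1, which held 3 of the 4 counts, the Col-0 value was −5.89. For wrky75, where ozone left 1 count against 100 in control, the ratio of ozone to control per total count was 0.00996 with an exact 95% interval of 0.00025 to 0.0568, which covers counting error only.

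Per kilobase of merged RefSeq exons, the control order in Col-0 was led by IAA17 at 56.7 ± 4.94 CPM per kb (SD, n = 4). That was the third highest level in the family. Gene ends in RefSeq often differ from those in the count files, with both ends equal for 1563 of 7406 genes on chromosome 1. IAA4 at 27.5 ± 1.41, IAA2 at 25.2 ± 3.32 and IAA3 at 24.8 ± 6.50 CPM per kb came next. On these lengths they did not differ beyond their spread. For IAA2, however, the RefSeq exons (1358 bases) are longer than its whole locus in the count files (chr3:8180768-8181800). Its level per kb is therefore too low here, and the order of IAA4, IAA2 and IAA3 is not settled. IAA1 followed at 14.1 ± 2.04 CPM per kb, then IAA14 at 7.12 ± 2.38 and IAA19 at 5.99 ± 0.87, which overlapped in spread. IAA5 at 2.96 ± 0.514 and IAA29 at 2.62 ± 1.15 were not separable, and IAA6 was lowest at 1.53 ± 0.329 CPM per kb. Under ozone IAA2 led the 10 at 25.2 ± 3.94 CPM per kb, ahead of IAA17 at 10.5 ± 4.24, IAA4 at 8.27 ± 0.991, IAA19 at 3.22 ± 0.998, IAA3 at 2.06 ± 1.05 and IAA1 at 1.79 ± 0.688. The counts of the 10 genes summed to 205.2 to 278.8 CPM in control libraries and 60.9 to 81.9 CPM in ozone libraries. IAA2 made up 14.2% to 19.1% of that sum in control and 40.2% to 64.5% under ozone, with no overlap.

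Partners were then compared within each library, where depth and scaling cancel. The log2 ratio of IAA1 to IAA2 counts lay between −1.59 and −1.09 in the 10 control libraries and between −5.08 and −4.01 in the 10 ozone libraries. The mean shift was −3.18, with −3.03 in Col-0, −3.19 in wrky25 wrky33 and −3.32 in wrky75 (two-sided exact permutation of treatment within genotype, p = 7.1e-05, the smallest its 28000 arrangements can give, adjusted over 4 pairs p = 9.5e-05). IAA3 to IAA4 shifted by −1.97 (adjusted p = 9.5e-05, exact permutation), from between −0.67 and 0.31 to between −3.18 and −1.43. IAA6 to IAA19 shifted by −3.12 (adjusted p = 9.5e-05, exact permutation), with −3.73 in Col-0, −1.36 in wrky25 wrky33 and −4.28 in wrky75, and its size rests on the 0.5 count added to each count, since 4 ozone libraries held no IAA6 count. With 1 count added it was −2.61. IAA14 to IAA17 shifted by −0.99 (adjusted p = 0.00021, exact permutation), and here the ranges overlapped, at −3.19 to −1.66 in control and −4.64 to −2.78 under ozone. This test takes the libraries of a genotype as independent, while same-numbered libraries of the 3 genotypes deviated together within a treatment. With such libraries kept together as 8 sets, 70 arrangements allow no p under 0.029. The first 3 pairs reached it (adjusted p = 0.038, exact permutation of sets), and IAA14 to IAA17 did not pass (p = 0.057, adjusted p = 0.057, exact permutation of sets). The pairs were formed, and both tests chosen, after the values were known.

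**Figure D3:**
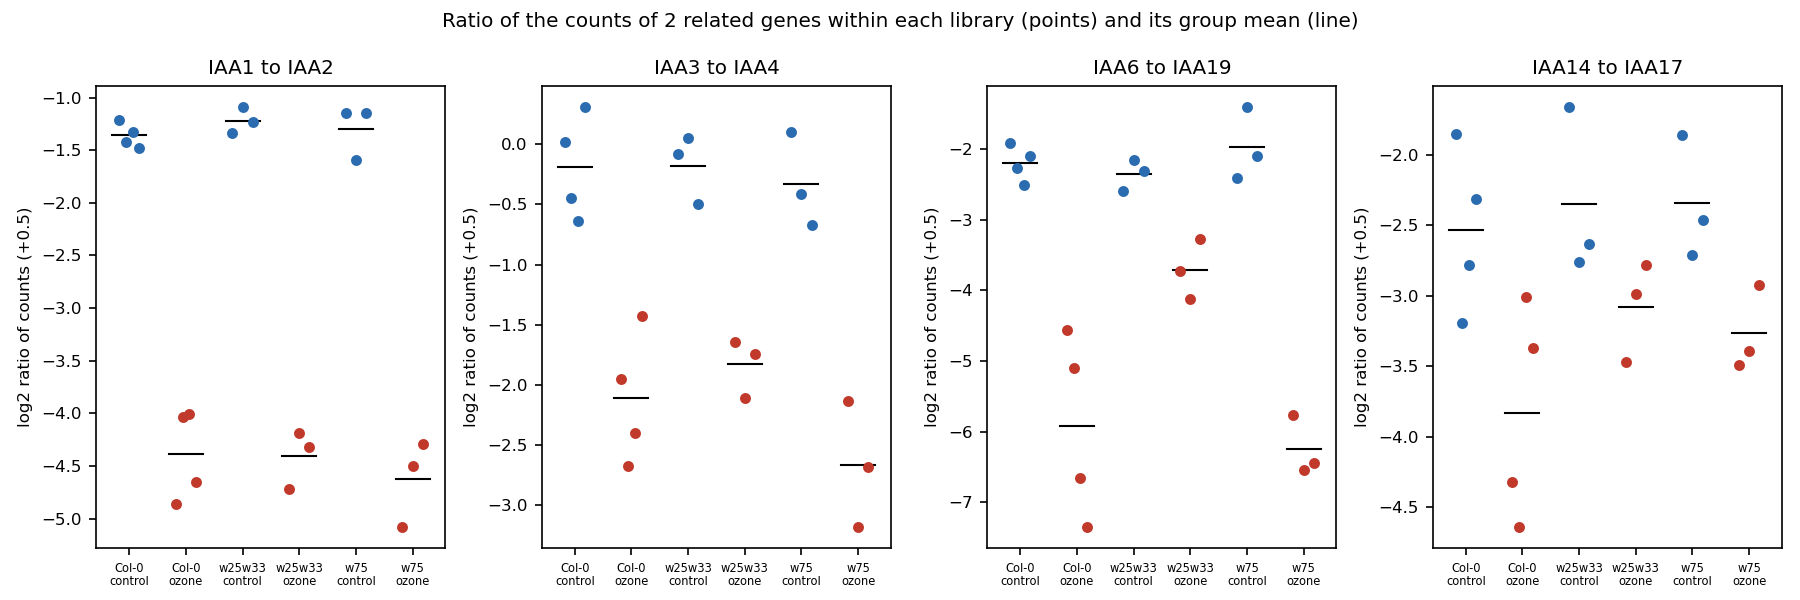
Log2 ratio of the counts of 2 partners, with 0.5 added to each count, in every library (points; blue control, red ozone) and its group mean (line). The IAA1 to IAA2 ratio lies at −1.59 to −1.09 in control and −5.08 to −4.01 under ozone.

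Upstream sequence was compared within the same pairs. Aligned over the 250 bases before the gene start given in the count files, IAA6 and IAA19 matched at 159 of 231 columns and IAA1 and IAA2 at 161 of 240, while IAA3 and IAA4 matched at 45 of 50. Shown are the stretches of IAA6 (chr1:19673653-19673894, minus strand) and IAA19 (chr3:5263774-5264000, plus strand), ending at the base before the RefSeq gene start in TAIR10.1. Capitals mark the auxin response element TGTCTC, the W-box TTGACC, a core bound by WRKY factors, and in IAA19 the G-box CACGTG, and one TGTCTC of IAA19 directly follows its W-box.
IAA6: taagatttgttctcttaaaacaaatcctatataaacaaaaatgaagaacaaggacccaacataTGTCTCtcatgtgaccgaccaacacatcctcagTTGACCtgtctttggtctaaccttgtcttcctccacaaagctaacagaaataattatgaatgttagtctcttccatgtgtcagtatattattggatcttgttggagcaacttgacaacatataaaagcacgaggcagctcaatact
IAA19: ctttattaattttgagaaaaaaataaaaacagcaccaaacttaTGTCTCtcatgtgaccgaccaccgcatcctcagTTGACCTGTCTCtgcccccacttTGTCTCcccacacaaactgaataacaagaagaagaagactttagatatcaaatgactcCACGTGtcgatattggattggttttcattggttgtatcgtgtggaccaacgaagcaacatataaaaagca
The pair shares the first TGTCTC and the W-box in the same order and spacing, and only IAA19 has the 2 further TGTCTC and the G-box. For IAA1 and IAA2 the 30 bases around a shared element are shown, at chr4:8360948-8360977 (plus) and chr3:8181865-8181894 (minus, within the RefSeq transcript of IAA2), with capitals for the reverse complement of TGTCGG, the other auxin response element searched.
IAA1: tcctcatgctccCCGACAacgtcataattc
IAA2: cctttcatgcttCCGACAacacttctctct
On either strand, TGTCTC or TGTCGG was present in the windows of 5 of 10 members (IAA1, IAA2, IAA5, IAA6 and IAA19) and of 16.05% of 26711 genes. With 50 bases after the start included it was present in 7 of 10 (20.91% of all), and in the 250 bases before the RefSeq start in 4 of 10 (14.64%), where IAA2 had none, since its site lies inside the RefSeq gene. A W-box, spelled TTGACC or TTGACT, was present in 5 of 10 (IAA1, IAA6, IAA17, IAA19 and IAA29) and in 28.93% of all. The G-box was in 3 of 10 (IAA14, IAA17 and IAA19) and 7.73% of all, but in 1 of 10 when the window was placed before the RefSeq start. These matches describe letters in a window and are not evidence of binding.

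The mutants were then set against Col-0. In control plants 0 of 10 members were called in wrky25 wrky33 and 0 of 10 in wrky75, and 0.0251% of all genes were called in wrky25 wrky33 and 0.0251% in wrky75. No member had an unadjusted p under 0.05 there, by edgeR or DESeq2. Under ozone 0 of 10 were called between wrky25 wrky33 and Col-0, where 5.33% of all genes were, and 0 of 10 between wrky75 and Col-0, where 0.0251% were. These fits leave out the pairing of same-numbered libraries within a treatment. With a replicate block within each treatment, IAA3 was called between wrky25 wrky33 and Col-0 under ozone, and over all genes 2444 were higher and 2228 lower. IAA6 had an unadjusted p under 0.05 in wrky25 wrky33, and no other member did, by either tool. It stood 1.67 ± 0.76 (SE) higher on the log2 scale there (adjusted p = 0.288, edgeR), resting on 11 counts in 3 wrky25 wrky33 ozone libraries and 4 counts in 4 of Col-0. The ozone responses themselves did not differ by the test for any of the 10. For wrky25 wrky33 minus Col-0, 0 of 10 were called, where 0.957% of all genes were, with IAA6 at 1.78 ± 0.82 (adjusted p = 0.524, edgeR). For wrky75 minus Col-0, 0 of 10 were called, where 0.0% of all genes were (349 genes had an unadjusted p under 0.05, and DESeq2 called 2), with IAA6 at −1.63 ± 1.25 and IAA5 at 0.67 ± 0.64 (adjusted p = 1 for each, edgeR). The SE of these differences between responses ran from 0.18 for IAA4 to 1.25 for IAA6, which sets the size of a difference that could have been detected.

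IAA3 was the member whose call between genotypes depended on the replicate block. Its ozone levels were 3.49 ± 0.338 CPM in wrky25 wrky33 (SD, n = 3), 2.79 ± 1.42 CPM in Col-0 (SD, n = 4) and 2.04 ± 0.589 CPM in wrky75 (SD, n = 3). The log2 difference between wrky25 wrky33 and Col-0 was 0.33 ± 0.30 (adjusted p = 0.733, edgeR). A replicate block within each treatment gave 0.73 ± 0.18, which was called (adjusted p = 0.00888, edgeR). That block also gives Col-0 ozone replicate 4 no weight in the difference, since the mutants have no replicate 4. Col-0 ozone replicate 4 was the highest of the 10 ozone libraries, and without it the difference was 0.72 ± 0.27 (adjusted p = 0.147, edgeR).

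The rest of the family gave a mixed picture in Col-0. Because the 10 genes were chosen with earlier results known, their contrast with the rest is not independent of that choice. Of the other 19 genes 13 passed the filter, with a median log2 change of −0.46. Of these 13, 9 were called lower, where 36.4% of all tested genes were, and 3 higher, where 33.3% were. The largest falls were in IAA30 (−2.01 ± 0.38), IAA12 or BODENLOS, a repressor of embryonic root formation (−1.81 ± 0.14), IAA7 or AXR2 (−1.75 ± 0.17) and IAA13 (−1.44 ± 0.12). Each was less than the median of the 10 but more than the fall of IAA19 (−0.90 ± 0.23). IAA30, IAA12 and IAA7 fell at least as much as IAA4 (−1.73 ± 0.12). IAA8 and IAA9, the most abundant genes of the family per kilobase, fell by 0.92 ± 0.12 and 0.95 ± 0.10. IAA10 rose from 3.91, 4.06, 4.31 and 3.87 CPM to 17.80, 28.36, 25.55 and 26 CPM (2.60 ± 0.17, adjusted p = 2.44e-10, edgeR). IAA28 rose by 1.50 ± 0.15 and IAA26 by 0.60 ± 0.10, and IAA18 was not called (−0.20 ± 0.11, adjusted p = 0.113). The 10 genes made up 21.2% to 28.3% of the summed Aux/IAA counts in control libraries and 11.9% to 15.7% under ozone, with no overlap. In wrky25 wrky33 the other genes numbered 9 lower (33.9% of all genes) and 3 higher (31.1%). In wrky75 they numbered 8 lower (36.1%) and 3 higher (32.0%). Under ozone IAA10 was lower in wrky25 wrky33, at 11.56, 16.30 and 11.98 CPM, than in Col-0 (−0.88 ± 0.17, adjusted p = 0.00313, edgeR), without overlap. The difference between the ozone responses of IAA10, −0.80 ± 0.25, was not called (adjusted p = 0.203, edgeR), but was called with the replicate block within each treatment (−0.74 ± 0.16, adjusted p = 0.00997).

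**Figure D4:**
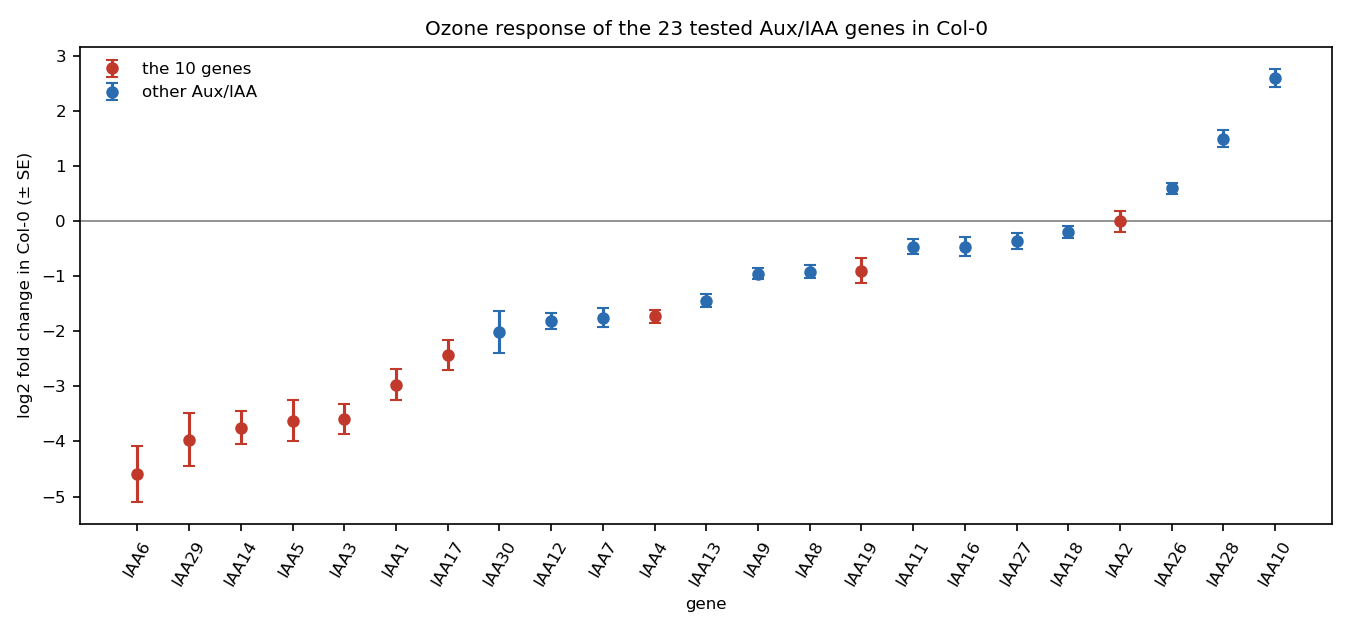
Log2 fold change of ozone against control in Col-0 with SE for the 23 Aux/IAA genes that passed the filter, sorted by change (red the 10 genes, blue the others). Red points fill the low end from −4.59, while the red points IAA4, IAA19 and IAA2 lie among the blue ones. The blue points IAA26, IAA28 and IAA10 lie above 0 at 0.60, 1.50 and 2.60. The 10 genes were chosen with earlier results known.

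The genes around the repressors went both ways. Their counts stand beside 36.4% of all tested genes called lower in Col-0 and 33.3% called higher. Among 6 receptors 4 fell in Col-0, TIR1 (−1.11 ± 0.10), AFB5 (−0.85 ± 0.10), AFB1 (−0.79 ± 0.14) and AFB3 (−0.78 ± 0.12), AFB2 rose (0.46 ± 0.10), and AFB4 was not called (−0.04 ± 0.14). Of 5 co-repressors 3 rose, TPL (0.78 ± 0.10), TPR3 (0.71 ± 0.11) and TPR2 (0.38 ± 0.07), and TPR1 (−0.16 ± 0.10) and TPR4 (−0.12 ± 0.08) were not called. Of 15 ARFs 9 fell and 3 rose, the latter being ARF7 (1.06 ± 0.09), ARF6 (0.87 ± 0.15) and ARF2 (0.39 ± 0.13). The largest falls were in ARF10 (−1.32 ± 0.19), ARF3 (−1.15 ± 0.12), ARF18 (−1.13 ± 0.13) and ARF4 (−1.09 ± 0.09). The ARFs known as activators went both ways, with ARF6 and ARF7 higher and ARF5 (−0.73 ± 0.13), ARF8 (−0.94 ± 0.09) and ARF19 (−0.88 ± 0.16) lower, and ARF2, known as a repressor, was among those that rose. ARF1 (−0.17 ± 0.08), ARF17 (−0.05 ± 0.10) and ARF11 (0.04 ± 0.17) were not called. ARF2 was no longer called with upper-quartile scaling (0.19, adjusted p = 0.187), without Col-0 ozone replicate 4 (0.24, adjusted p = 0.0772), or when the Col-0 groups were fitted alone (0.39, adjusted p = 0.0798).

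Genes that set auxin supply were also examined, beside the same shares over all tested genes, 36.4% lower and 33.3% higher in Col-0. Of 13 synthesis genes 7 passed the filter and 3 fell, the aminotransferase gene TAR2 (−1.87 ± 0.13) and the monooxygenase genes YUC2 (−1.50 ± 0.22) and YUC6 (−1.37 ± 0.14), and none rose. YUC1, YUC4, YUC8 and TAA1 lay between −0.17 and 0.03 with no call. Of 7 GH3 genes, whose enzymes join auxin to amino acids, 5 passed the filter and GH3.17 fell (−1.39 ± 0.24), while GH3.2, GH3.3, GH3.5 and GH3.6 lay between −0.10 and 0.49 with no call. DAO1, which encodes an auxin oxidase, rose by 1.00 ± 0.22. Transport genes changed the most, with 11 of 13 tested genes lower and 2 higher. The efflux carrier genes PIN3 (−2.64 ± 0.17) and PIN4 (−2.01 ± 0.17) and the influx carrier genes LAX2 (−2.51 ± 0.12) and AUX1 (−1.91 ± 0.16) fell, whereas ABCB4 rose by 3.80 ± 0.30. Median log2 changes were −0.78 for receptors, 0.38 for co-repressors, −0.56 for ARFs, −0.17 for synthesis, 0.06 for GH3 and −1.61 for transport, beside −3.28 for the 10 Aux/IAA genes.

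**Figure D5:**
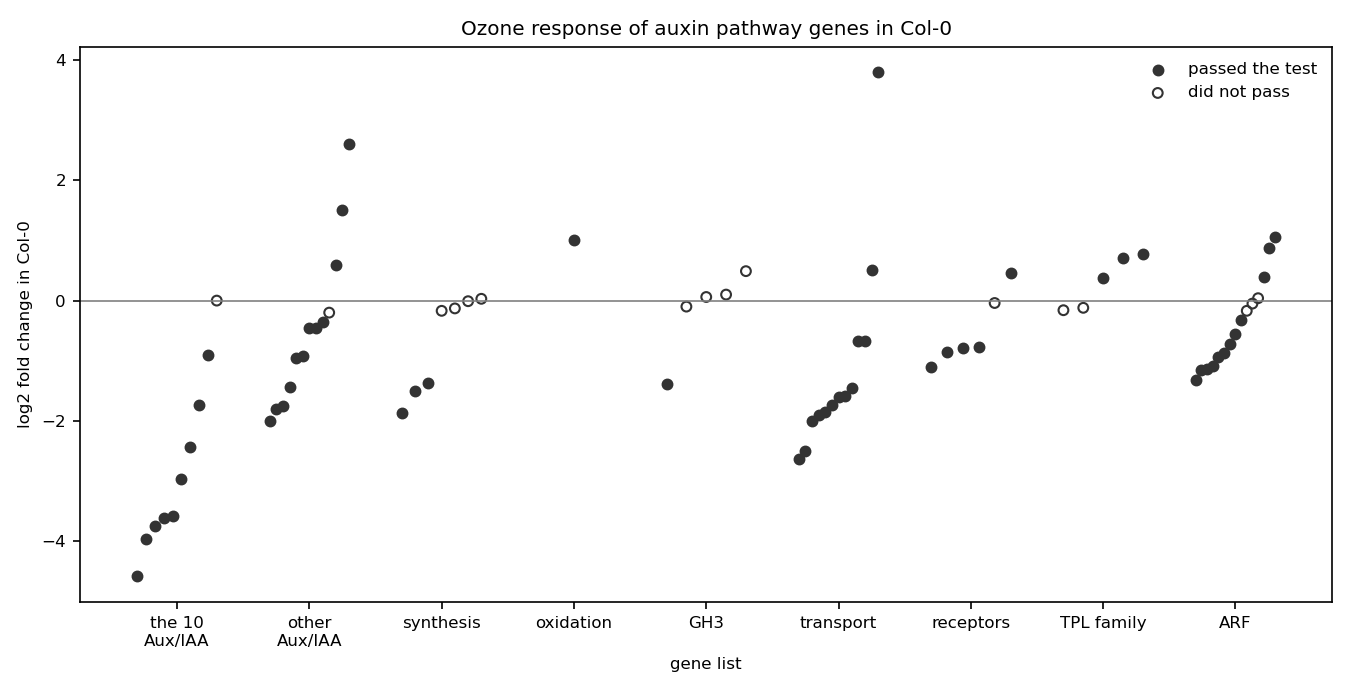
Log2 fold change of ozone against control in Col-0 for each tested gene of 9 auxin gene lists, sorted within a list; filled points passed the test at an adjusted p under 0.05 and open points did not. The 10 Aux/IAA genes reach from −4.59 to 0.00, and the GH3 list has 1 filled and 4 open points.

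The genes most like each member over the 6 group means were sought among 14632 genes outside the family with a mean of at least 5 CPM. The measure was the root mean square difference of centred log2 CPM, and because ozone dominates it, it ranks genes with a like ozone response. Adding 0.1 CPM before the log shrinks the fall of members near 0 under ozone. IAA6 ran from 1.53 to −1.80 in Col-0, beside a fitted change of −4.59. The genes nearest to IAA5, IAA6 and IAA29 therefore match these shrunken falls. SAUR16 (AT4G38860), of the small auxin up RNA genes, was nearest to IAA3, at 0.0793, with group values of 1.85 and −1.97 in Col-0 control and ozone against 1.79 and −1.83 for IAA3. KIDARI (AT1G26945) was nearest to IAA5 at 0.165, BZIP34 (AT2G42380) to IAA14 at 0.132, ESP (AT1G54040) to IAA17 at 0.112, and SOT17 (AT1G18590) to IAA19 at 0.0567. TPX2 (AT1G03780) was nearest to IAA2 at 0.0549, and both stayed within 0.17 of their mean in every group. For IAA1, IAA4, IAA6 and IAA29 the nearest genes were AT5G66590, AT5G47900, AT3G15570 and AT1G29660, at 0.0867, 0.041, 0.177 and 0.138.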

How the data were processed

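Whole-number read counts per gene were deposited by the authors, not normalised. Per the submitters' processing notes, the tools were HTSeq, SAMtools, TopHat2 and FastQC and the genome was TAIR10. Per the labels' protocols, Illumina's TruSeq RNA kit in version v2 was used. For versions, settings and reads with several matches, nothing is given in the sources used here. The kit does not mark strand. Groups and replicate numbers were taken from the labels. The labels call the pools biological replicates, and p-values measure the spread between pools.

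Counts were analysed with edgeR 4.0.16 in R 4.3.3. Genes with low counts were removed with filterByExpr, which left 19954 of 33602 genes, and TMM factors scaled the libraries. All 20 libraries entered 1 quasi-likelihood fit on the 6 groups, and 9 comparisons were tested, with p-values adjusted by Benjamini-Hochberg over all genes tested. A gene is called at an adjusted p under 0.05. Levels are counts-per-million (CPM), and those per kilobase use RefSeq exons. The gene ends of RefSeq often differ from those in the count files, so levels per kilobase order the genes only roughly. The fit recovered changes planted in a small share of the genes of simulated data. Far more genes changed in the real data, so the simulation does not test the scaling under ozone. Alternatives were DESeq2 1.42.0, other scalings, no filter, fewer groups, a replicate block and leaving out libraries. Percentages, folds and ratios were computed from the counts.

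The 10 genes and all lists were chosen with earlier results of these data known. All 10 are named in every comparison. Of each other list up to 4 called genes with the largest changes in Col-0 are named, and then genes without a call. ARF2, ARF5, ARF6, ARF7, ARF8, ARF19, IAA8, IAA9, IAA13, IAA16, IAA18, IAA26, IAA27, IAA28, AFB2 and AUX1 were named beyond that, with their values seen. Same-numbered libraries of different genotypes deviated together within a treatment, with correlations of 0.101 to 0.705 in 18 pairs. Across treatments 9 of 27 same-numbered pairs were over 0.1 (median 0.068), against 4 of 54 differently numbered pairs (median −0.02). The numbers therefore pair libraries for the comparisons between genotypes, and for the ozone comparisons the pairing was weaker. Gene positions in the files and in RefSeq TAIR10.1 use 1 coordinate system. Alignments used Biopython 1.88.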

Additional observations from a re-analysis of the deposited data

Results flagged for a closer look

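In the 4 Col-0 libraries of a group, 3 member values stood far from the other 3 by Dixon's ratio. They were IAA2 in ozone replicate 1 at 26.22 CPM, IAA5 in control replicate 3 at 1.71 CPM and IAA19 in control replicate 4 at 4.73 CPM. Of 20 such groups examined, chance would be expected to give about 1 in 20. Ozone replicate 1 was also the lowest of replicates 1 to 3 for IAA2 in both mutants.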

How the results depend on the processing

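For the 9 members other than IAA2, each of 756 alternative values over 27 ozone results kept its direction and its call. The count called lower stayed at 9 in each genotype under every alternative, the replicate block included, where it was also 9. Leaving out libraries 1 at a time gave 9 to 9 lower, and 0 to 1 higher in wrky25 wrky33, the 1 being IAA2 without ozone replicate 1; elsewhere no member was called higher. The replicate block within each treatment, added after seeing the data, called 1 member, IAA3, higher between wrky25 wrky33 and Col-0 under ozone. The cause of that call was not tested. The block also gives Col-0 ozone replicate 4 no weight there, since the mutants have no replicate 4. It raised the calls over all genes in that comparison from 311 higher and 753 lower to 2444 and 2228, in the difference of responses from 53 and 138 to 1023 and 680, in control from 3 and 2 to 6 and 47, and for wrky75 from 3 and 2 to 7 and 7 in control and from 4 and 1 to 12 and 5 under ozone. The replicate block with 1 number across treatments gave 1084 and 1310, and 278 and 340 for the difference. IAA2 in wrky75 (0.02) turned to −0.16 with upper-quartile scaling, and leave-one-out values ran from −0.14 to 0.22, with −0.11, −0.02 and −0.02 between; the cause was not tested. The ratio of IAA14 to IAA17 no longer passed when same-numbered libraries were permuted as sets (p = 0.057, exact permutation), and the other 3 ratios did. IAA16 and IAA27 in Col-0 lost their call under 5 and 8 of 28 alternatives. IAA6 under ozone is limited by depth, at 4 counts in Col-0 and 1 in wrky75.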
